A study of Chlamydomonas reinhardtii with 16 samples.

Results

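The 46 genes described here are those of Chlamydomonas reinhardtii whose transcript level was high in the heme oxygenase mutant hmox1 after 30 min of light and low when the same mutant had been fed biliverdin. They were chosen by 4 clauses from the 17301 genes of the deposited table, each clause read from the 4 light groups as mean RPKM of 2 libraries plus 1, where RPKM is the number of reads scaled to the length of the gene and to the depth of the library. Without biliverdin in the light, hmox1 had to stand at 1.8 times wild type or more. Biliverdin had to bring lit hmox1 to 0.55 times its unfed level or less, and to leave lit wild type above 0.5 times its unfed level. The mean in unfed lit hmox1 had to reach 2 RPKM.

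The first clause held for 1212 genes, 7.01% of the table. Of these, 57 genes, 4.7%, also met the biliverdin clause for hmox1, and 56 of them reached the level. The wild-type clause then left out 10 genes whose level fell below its bound in lit wild type as well, so that 46 remained. All 4 light groups entered this choice, so the light values given here describe the selection and carry no test. The dark groups were not used by the rule and were tested.

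Heme oxygenase is a plastid enzyme that opens the ring of heme and yields biliverdin IXα (BV), a linear tetrapyrrole, or bilin. In green algae and plants, bilin reductases convert biliverdin to phytobilins, which in land plants and cyanobacteria serve as chromophores of light-sensing proteins such as phytochromes. Chlamydomonas makes bilins but has no known phytochrome, and the study asked whether bilins made in the plastid signal to nuclear genes during greening. Light is also when free tetrapyrroles and excited chlorophyll can be harmful. The first minutes after a shift from darkness to light are a period of large transcript changes.

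The groups were hmox1 in the light with BV, hmox1 in the light without BV, hmox1 in the dark with BV and hmox1 in the dark without BV, and the same 4 conditions of the wild type 4A+. Each group had 2 RNA sequencing libraries, 16 in all. Every culture grew in darkness on acetate medium with 0.5% methanol, so the controls carried the methanol too, and the fed cultures also had 0.1 mM BV from inoculation on. The light groups were exposed to white light, 150 µmol of photons per square metre and second, during the last 30 min. One mutant strain was set against one wild type, so an effect of the mutated gene cannot be told apart from any other difference between these strains. Which identifier belongs to the mutated gene is not known from the sources used here, so its own level is not given. Whether both libraries of a group stem from different cultures is not stated in the labels, and the p-values then cover only a spread that could be technical.

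Libraries held 10213599 to 43414933 reads in genes, the highest in replicate 2 of lit hmox1 without BV and the lowest in replicate 2 of lit wild type without BV. Pearson's r across genes between the libraries of a group was 0.9941 to 0.9972. The libraries of lit wild type with BV differed most, with a median SD of 0.120 on the log2(RPKM + 1) scale against 0.053 to 0.076 in the other groups. Genes are called by their identifiers without the transcript suffix, since the sources used here pair no identifier with a gene name or product.

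2 members had recovered lengths under 200 nt and were singled out after their values were seen. Cre14.g622250 was listed at 0 RPKM in 15 libraries and at 9.21 RPKM in replicate 2 of lit hmox1 without BV. The smallest whole solution of that value is 2 reads in 5 nt. A single value above 0 fits any multiple of both, so its reads and length are not known. Cre14.g622250 is the 1 member that did not reach the filter for testing, 1 RPKM in at least 2 libraries. Cre10.g442100, with a recovered length of 25 nt, stood at 12.7 and 5.53 RPKM in lit hmox1 without BV, or 6 reads in each, against 5.01 and 0 RPKM in lit wild type without BV, and its libraries overlapped between groups. The counts over 45 tested members include Cre10.g442100, which was called in no dark comparison. The other 44 members had recovered lengths of 431 to 9890 nt and at least 23 reads in each library of lit hmox1 without BV.

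In lit hmox1 without BV the members covered a wide range of abundance. Their means ran from 2.40 to 184 RPKM with a median of 19.9 RPKM; 10 members stood at 50 RPKM or more, 20 between 10 and 50 RPKM, and 16 under 10 RPKM. The libraries of this group lay within 10% of each other in 36 members, and the median coefficient of variation was 2.79%. For 42 of the 46 members the lower library of lit hmox1 without BV was above all 14 libraries of the other groups, and for 44 this group had the highest mean of the 8. The exceptions by mean were Cre14.g623400, highest in dark wild type with BV, and Cre16.g661300, highest in dark hmox1 without BV.

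**Figure D1:**
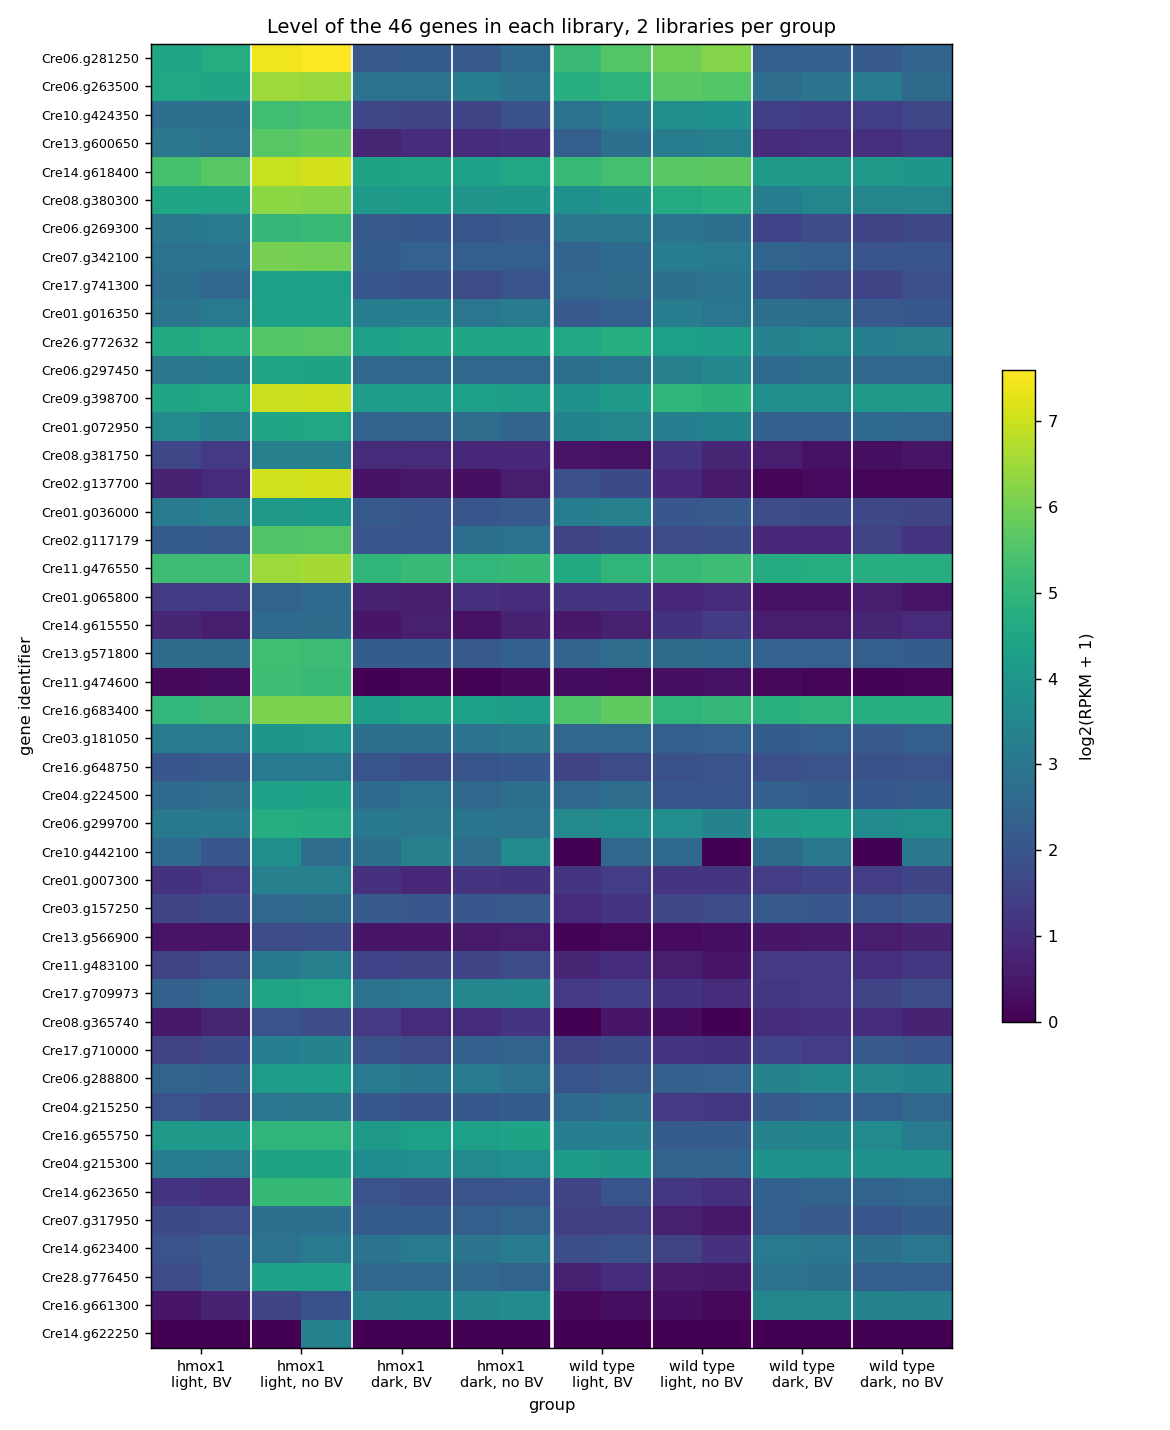
Level of each of the 46 genes on the log2(RPKM + 1) scale (colour) in each of the 16 libraries (columns, 2 per group, hmox1 left of wild type), ordered by the change with light in wild type without BV, with the untested gene last. The columns of hmox1 in the light without BV are the brightest in 44 rows by group mean; Cre14.g622250 has a value in 1 library only.

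The steepest member was Cre02.g137700. It stood at 0.642 and 0.908 RPKM in lit hmox1 with BV, against 131 and 136 RPKM in lit hmox1 without BV. Lit wild type had 2.64 and 2.29 RPKM with BV, against 0.822 and 0.461 RPKM without BV, so fed hmox1 overlapped unfed wild type and unfed hmox1 stood far above every other group. The transcript was nearly undetected in darkness, at no more than 0.505 RPKM in any dark library and as few as 4 reads in a library. It was the second most abundant of the 46 transcripts in lit hmox1 without BV, with a ratio of 81.9 to wild type, and BV left 0.0132 of its level.

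Cre11.g474600 had the same on-or-off pattern at a lower level. It stood at 0.133 and 0.188 RPKM in lit hmox1 with BV, against 36.6 and 34.1 RPKM in lit hmox1 without BV. Lit wild type had 0.181 and 0.171 RPKM with BV, against 0.244 and 0.286 RPKM without BV. The highest dark library, of hmox1 without BV, had 0.147 RPKM, so that a sizeable signal was seen in 1 of the 8 groups only. The ratio to wild type was 28.7, and BV left 0.0319 of the level.

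Other members with large ratios had a clear dark level as well. Cre14.g623650 stood at 1.21 and 1.05 RPKM in lit hmox1 with BV, 33.2 and 32.8 RPKM in lit hmox1 without BV, and 1.30 and 1.05 RPKM in lit wild type without BV. Its dark libraries held 2.51 to 4.78 RPKM, above the levels of fed lit hmox1 and of unfed lit wild type. Cre28.g776450 stood at 2.35 and 3.34 RPKM in lit hmox1 with BV, 19.3 and 19.3 RPKM in lit hmox1 without BV, and 0.454 and 0.412 RPKM in lit wild type without BV. Fed lit hmox1 was thus still above unfed lit wild type.

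Cre02.g117179 stood at 3.68 and 3.49 RPKM in lit hmox1 with BV, 45.8 and 45.9 RPKM in lit hmox1 without BV, and 2.35 and 2.57 RPKM in lit wild type without BV. Cre07.g342100 stood at 6.11 and 6.38 RPKM in lit hmox1 with BV, 65.2 and 62.9 RPKM in lit hmox1 without BV, and 8.06 and 7.93 RPKM in lit wild type without BV, so that feeding left it below unfed wild type. Cre13.g571800 stood at 37.6 and 36.2 RPKM in lit hmox1 without BV, against 5.23 and 5.03 RPKM in lit wild type without BV. In Cre13.g571800 all of the other groups lay close together, between 3.46 and 5.59 RPKM in their 14 libraries, so lit hmox1 without BV was the 1 group that stood apart. Cre17.g709973, Cre16.g655750 and Cre11.g483100 complete the 10 largest ratios, at 10.7, 6.78 and 6.37.

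**Figure D2:**
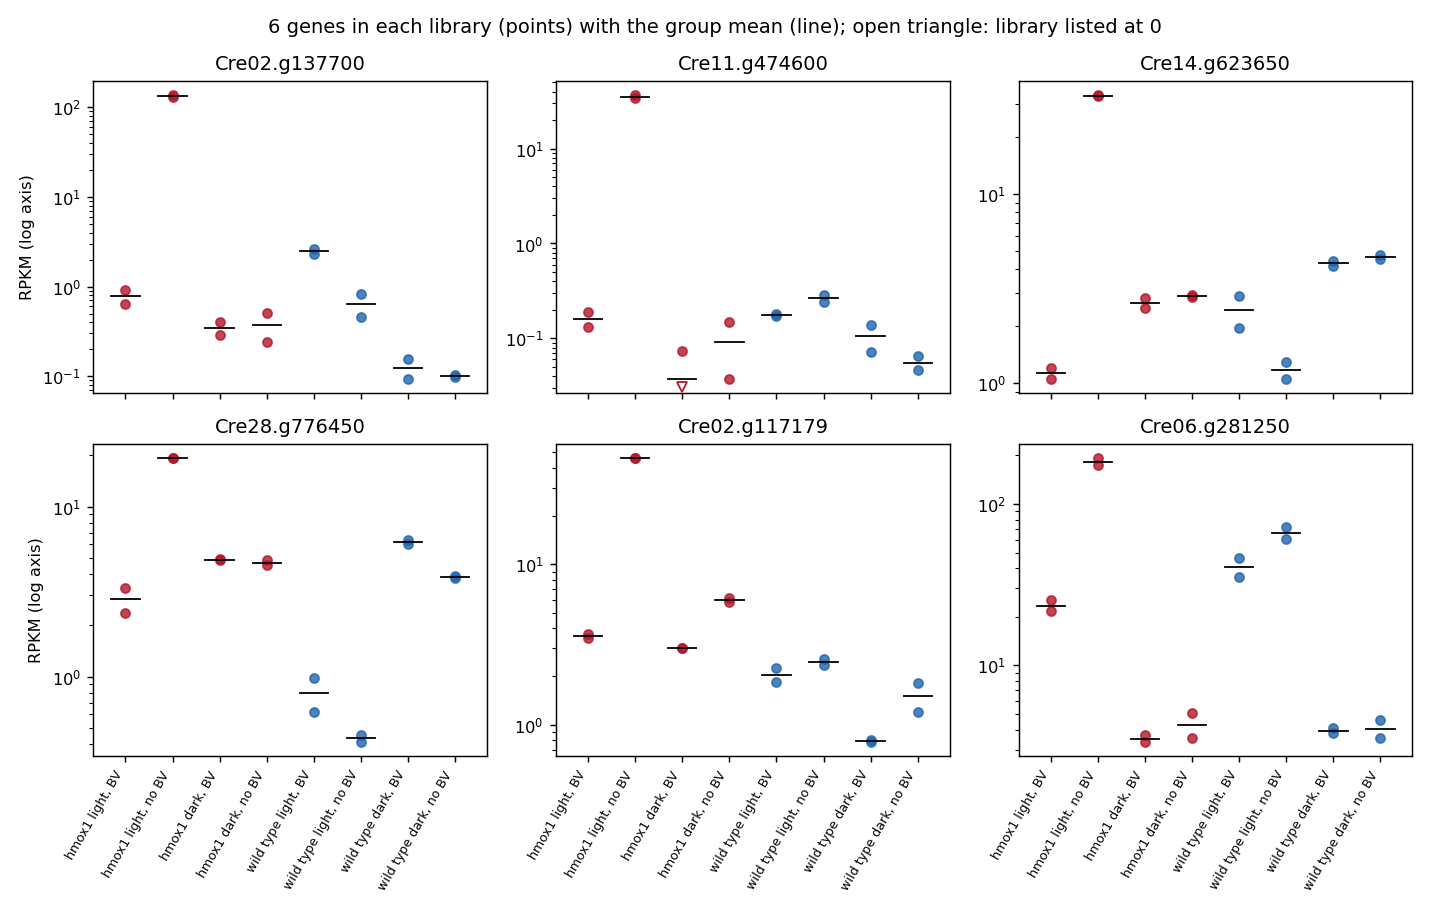
RPKM on a log axis in each library (points; red hmox1, blue wild type) and the group mean (line) for 6 genes in the 8 groups, with a library listed at 0 drawn as an open triangle at the foot of the axis. In each panel the points of hmox1 in the light without BV lie above all others. By group mean, Cre14.g623650 and Cre28.g776450 are lower in lit wild type than in the dark groups, and Cre06.g281250 is higher in all light groups. For Cre14.g623650 the libraries of lit wild type with BV overlap those of dark hmox1.

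The most abundant member, Cre06.g281250, differs from these in that its level was high in lit wild type too. It stood at 21.6 and 25.3 RPKM in lit hmox1 with BV, against 174 and 193 RPKM in lit hmox1 without BV. Lit wild type had 35.2 and 46.2 RPKM with BV, against 60.7 and 71.6 RPKM without BV, and dark libraries held 3.35 to 5.06 RPKM. Fed lit hmox1 was thus below fed lit wild type, with a difference of -0.76 on the log2(RPKM + 1) scale. Cre14.g618400 (123 and 135 RPKM in lit hmox1 without BV, against 49.1 and 50.5 RPKM in lit wild type without BV) and Cre09.g398700 (126 and 129 RPKM, against 30.7 and 28.5 RPKM) were of similar abundance. Cre11.g476550 and Cre06.g263500 had smaller ratios, 2.55 and 1.81, at means of 91.8 and 87.5 RPKM in lit hmox1 without BV.

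Some members lay near the thresholds. Cre06.g263500 at 1.81, Cre03.g157250 at 1.89 and Cre06.g297450 at 1.98 had the smallest ratios of lit hmox1 to lit wild type, and the nearest genes left out were Cre13.g600700 at 1.73, Cre15.g640150 at 1.67 and Cre12.g501100 at 1.67. By the BV clause the members nearest the bound were Cre16.g655750 at 0.541, Cre03.g181050 at 0.535 and Cre01.g036000 at 0.533, and the nearest gene left out was Cre04.g224400 at 0.551. The median member had a ratio to wild type of 3.30 and kept 0.320 of its level under BV, and 19 members had a ratio of 4 or more. With a scaling of the libraries by the median log ratio, 31 of the 46 genes met the rule again. With a pseudocount of 5 in the rule, 28 did.

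Among the 13972 genes that passed the filter, 8.67% met the first clause, which all members met by choice. On the log2(RPKM + 1) scale the 45 tested members were higher in lit hmox1 than in lit wild type without BV by a median of 1.75 (0.85 to 6.36), while the median over all tested genes was 0.29. With BV the same difference between the strains in the light had a median of 0.20 (-0.97 to 1.14) over the members and 0.29 over all tested genes, and 41 of the 45 members lay within 1 of 0. The sign of that member median depends on the scaling, since it was -0.09 after median scaling and -0.07 after quantile normalization, where the medians of all tested genes were -0.03 and -0.01. Fed lit hmox1 was higher than unfed lit wild type by a median of 0.13 over the members and 0.44 over all tested genes, and the member median was -0.39 after median scaling and -0.19 after quantile normalization. It stood above by 2-fold or more in 7 members, where 14.1% of all tested genes did, among them Cre16.g655750 (1.88) and Cre17.g709973 (1.44). It stood below by that much in 3, where 2.71% of all tested genes did: Cre06.g281250 (-1.46), Cre06.g263500 (-1.13) and Cre10.g424350 (-1.05). These counts were 2 above and 7 below after median scaling, and 1 above and 4 below after quantile normalization.

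Light itself moved the members in different directions in wild type. Without BV, the light minus dark difference over the members had a median of 1.83 (-1.84 to 6.62) in hmox1 and of 0.26 (-3.14 to 3.74) in wild type, and the medians over all tested genes were -0.35 and -0.57. In hmox1, 34 of 45 members were 2-fold or more higher in the light and 1 was 2-fold or more lower, where 7.96% and 15.1% of all tested genes were. In wild type, 9 were 2-fold or more higher and 9 were 2-fold or more lower, where 9.37% and 29.2% of all tested genes were. The clauses fix light levels, so these counts describe the selection and nothing is read from the shares. The split in wild type depends on the scaling: 20 members were 2-fold or more higher and 4 lower after median scaling, and 19 higher and 2 lower after quantile normalization, with member medians of 0.79 and 0.70. In hmox1 the members 2-fold or more higher were 40 and 36 under these scalings. Both were applied to the light counts after seeing the data.

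The 3 classes by the change in wild type were drawn on the authors' scaling after the values were seen, and their sizes move with the scaling as the split does. The 9 members that were 2-fold or more higher in lit than in dark wild type were all higher by more in hmox1, with a median of 3.41 in hmox1 and 1.64 in wild type. They are Cre06.g281250, Cre06.g263500, Cre10.g424350, Cre13.g600650, Cre14.g618400, Cre08.g380300, Cre06.g269300, Cre07.g342100 and Cre17.g741300. Cre13.g600650 stood at 48.0 and 52.5 RPKM in lit hmox1, against 0.936 and 1.13 RPKM in dark hmox1, and at 8.30 and 9.21 RPKM in lit wild type, against 1.04 and 1.35 RPKM in dark wild type, all without BV.

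The next class held 27 members that changed by less than 2-fold with light in wild type on the log2(RPKM + 1) scale. Among them, 22 were 2-fold or more higher in lit than in dark hmox1. The class median was 1.72 in hmox1 and 0.26 in wild type. Cre02.g137700 and Cre11.g474600 belong here on that scale only. Their mean RPKM in lit wild type without BV was 6.32 and 4.79 times that in dark wild type, though under 1 RPKM in both. The 9 members that were 2-fold or more lower in lit than in dark wild type had a median of 0.73 in hmox1 and -1.38 in wild type. Of these, 3 were 2-fold or more higher in lit hmox1 (Cre14.g623650, Cre28.g776450 and Cre06.g288800), 5 changed by less, and 1 was lower.

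That last member was Cre16.g661300, whose level in lit hmox1 without BV was high only beside the other light groups. It stood at 2.03 and 2.78 RPKM in lit hmox1, against 10.5 and 11.7 RPKM in dark hmox1, and at 0.230 and 0.127 RPKM in lit wild type, against 9.55 and 9.21 RPKM in dark wild type, all without BV. Its level was thus lower in the light in both strains and lower by less in hmox1. In all, 26 members were higher in the light in both strains, 17 were higher in lit hmox1 but lower in lit wild type, and 2 were lower in both. After median scaling these counts were 31, 13 and 1, and after quantile normalization 32, 12 and 1.

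**Figure D3:**
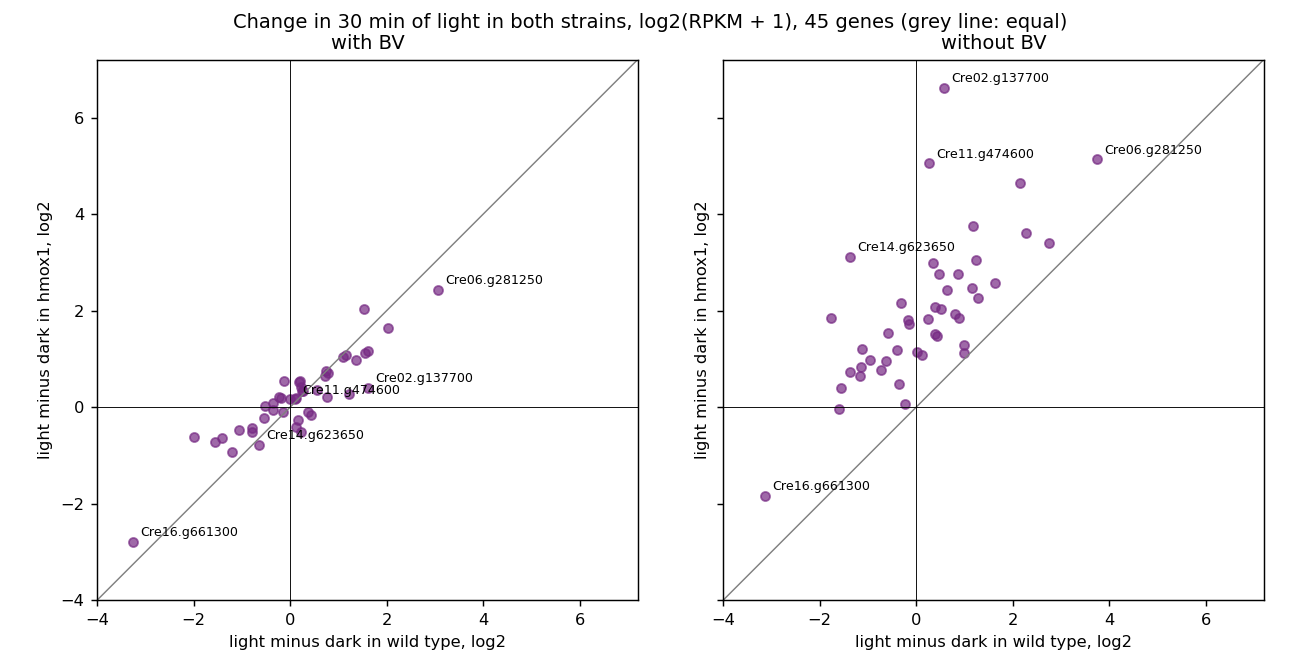
Light minus dark difference on the log2(RPKM + 1) scale in hmox1 (vertical axis) against wild type (horizontal axis) for the 45 tested genes, with BV (left) and without BV (right); the grey line marks equal change. Without BV all genes lie above the line, which the rule itself favours, and with BV they lie on both sides of it, with a median of 0.19 in hmox1 and 0.18 in wild type on the authors' scaling (0.34 and 0.63 after median scaling, 0.28 and 0.49 after quantile normalization).

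With BV, the light minus dark difference of the members had medians of 0.19 (-2.79 to 2.43) in hmox1 and 0.18 (-3.25 to 3.07) in wild type, and of -0.16 and -0.37 over all tested genes. That closeness holds on the authors' scaling only: the member medians were 0.34 in hmox1 and 0.63 in wild type after median scaling, and 0.28 in hmox1 and 0.49 in wild type after quantile normalization. At the extremes, Cre06.g281250 was highest in both strains, at 2.43 in hmox1 and 3.07 in wild type, and Cre16.g661300 was lowest, at -2.79 in hmox1 and -3.25 in wild type. Cre02.g137700 was at 0.40 in hmox1 and 1.62 in wild type.

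BV acted on the members in lit hmox1 by choice, with a median difference of -1.62 (-6.25 to -0.89), and 37 of 45 were 2-fold or more lower. In lit wild type the rule set only a lower bound, and the members lay on both sides of 0, with a median of -0.01 (-0.92 to 1.62), 22 above 0 and 23 below, beside a median of 0.13 over all tested genes. After median scaling the member median was -0.19, with 17 above 0 and 28 below, and after quantile normalization -0.15, with 18 above and 27 below. On the authors' scaling 5 members were 2-fold or more higher with BV in lit wild type, where 2.61% of all tested genes were. There were 3 such members after median scaling and 2 after quantile normalization. The 5 are Cre04.g215300 (1.62), Cre04.g215250 (1.43), Cre01.g036000 (1.14), Cre02.g137700 (1.08) and Cre16.g655750 (1.04).

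In these 5 genes the level with BV was lower in lit hmox1, as the rule requires, and higher in lit wild type. Cre04.g215300 stood at 8.51 and 7.64 RPKM in lit hmox1 with BV, against 19.9 and 20.3 RPKM without BV. In lit wild type it stood at 16.6 and 15.1 RPKM with BV, against 4.38 and 4.55 RPKM without BV, and the libraries with and without BV did not overlap in either strain. Cre01.g036000 stood at 7.54 and 9.01 RPKM in lit hmox1 with BV, against 16.1 and 16.7 RPKM without BV, and at 8.32 and 9 RPKM in lit wild type with BV, against 3.21 and 3.58 RPKM without BV. Fed cultures of both strains thus had nearly the same level. Cre04.g215250 and Cre04.g215300 follow each other in the table, and reads shared between them cannot be told apart.

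**Figure D4:**
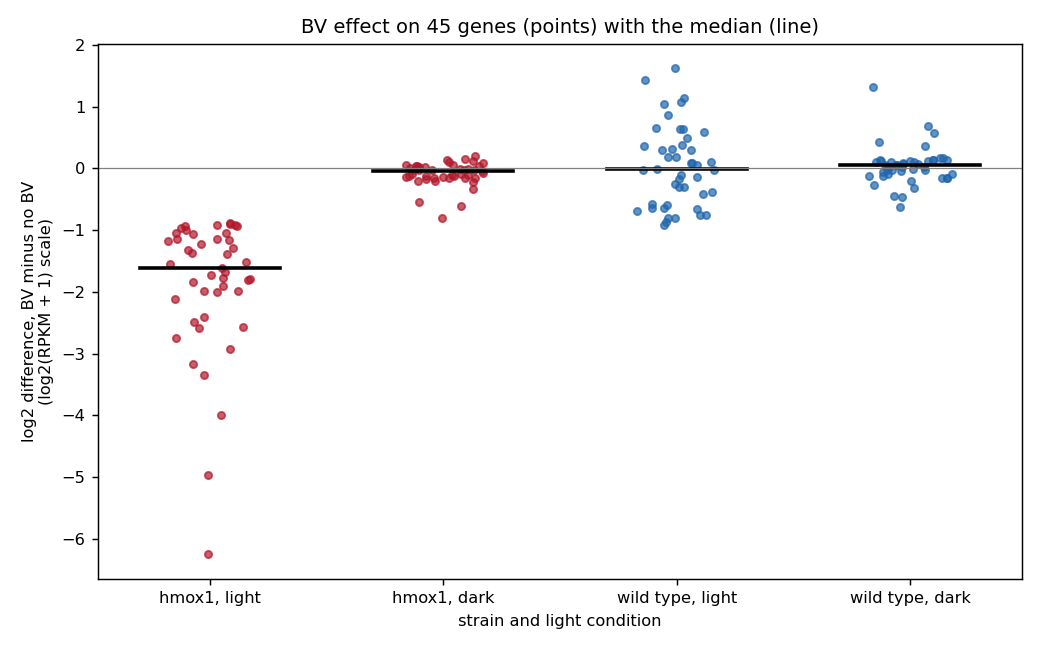
Difference between BV and no BV on the log2(RPKM + 1) scale for the 45 tested genes (points, spread sideways for legibility) in 4 settings, with the median (line). Lit hmox1, where the rule chose the genes, has a median of -1.62; dark hmox1 and dark wild type have medians of -0.05 and 0.05, and lit wild type spreads from -0.92 to 1.62 around -0.01 on the authors' scaling.

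In the dark, which the rule did not use, 35 members stood at 1 RPKM or more on average in all 4 dark groups and 7 under 1 RPKM in all 4. The strains were compared with limma on log2(RPKM + 1), with Benjamini-Hochberg adjustment over all 13972 genes tested, and a gene was called at adjusted p under 0.05. Without BV, 17 of the 45 members were higher in dark hmox1, 37.8% of them against 26.5% of all tested genes. 5 were lower, 11.1% against 8.49%, and 23 were not called. Members could pass the filter on their light levels alone. With the filter set on the dark libraries, 15 were called higher and 5 lower. The number of members that passed that filter and the share of all genes called under it are not given. The members are thus not set against all genes there. The median difference was 0.20 over the members and 0.12 over all tested genes.

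In darkness the strain difference of 41 of the 45 members lay within 1 on the log2 scale; it is not set against the light difference, which the rule fixed to be large. After median scaling the calls were 14 higher and 7 lower, and after quantile normalization 13 higher and 8 lower. Both scalings moved the median of all tested genes, 0.12 on the authors' scaling, to within 0.01 of 0. The shares of all tested genes called under these scalings are not given, so the members are not set against all genes there. The excess of higher over lower calls therefore depends in part on the scaling, and so do the calls of Cre07.g342100, Cre11.g476550 and Cre17.g710000, which both scalings end.

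The largest of these differences was that of Cre17.g709973. It stood at 10.1 and 10.8 RPKM in dark hmox1, against 1.96 and 2.48 RPKM in dark wild type, a difference of 1.83 ± 0.11 (SE, limma adjusted p = 2.7e-09). Cre02.g117179 stood at 5.81 and 6.16 RPKM in dark hmox1, against 1.82 and 1.20 RPKM in dark wild type (1.49 ± 0.11, limma adjusted p = 3.4e-08). Cre26.g772632 stood at 21.3 and 21.7 RPKM in dark hmox1, against 8.63 and 8.96 RPKM in dark wild type (1.20 ± 0.09, limma adjusted p = 3e-08). In all 3 the libraries of the strains did not overlap. These genes were thus higher in the mutant than in wild type in darkness too, though below their level in lit hmox1 without BV. Cre01.g016350 (0.96 ± 0.10, limma adjusted p = 1.4e-06) and Cre16.g655750 (0.95 ± 0.12, limma adjusted p = 1.2e-05) followed.

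The 5 members that were lower in dark hmox1 were higher in hmox1 than in wild type once lit, as the rule requires. Cre06.g299700 stood at 6.75 and 6.18 RPKM in dark hmox1, against 11.8 and 12.9 RPKM in dark wild type, a difference of -0.83 ± 0.11 (SE, limma adjusted p = 1.5e-05). In the light without BV it stood at 25.2 and 24.6 RPKM in hmox1, against 12.3 and 9.48 RPKM in wild type. The other 4 were Cre14.g623650 (-0.53), Cre16.g683400 (-0.50), Cre06.g288800 (-0.47) and Cre01.g007300 (-0.34), with limma adjusted p-values of 0.0022, 0.00036, 0.0029 and 0.025.

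The strains were compared in the same way in the dark with BV. With BV, 17 were higher in dark hmox1, where 30.3% of all tested genes were, and 5 were lower, where 12.3% were. With the filter set on the dark libraries, 15 were called higher and 5 lower. Shares of all tested genes are given for the authors' scaling and the main filter only. The number of members that passed the filter on the dark libraries is not given. The higher and lower calls were 12 and 10 after median scaling and 13 and 11 after quantile normalization, and 14 members in all were called without replicate 2 of dark wild type with BV. Of the 17 higher members, 16 (94.1% of each list) were those called without BV, and all 5 lower members were the same; no library is shared between these comparisons. Over all tested genes, 3002 were called higher in both comparisons, 70.8% of those called with BV and 81.0% of those called without BV, and 948 were called lower in both, 55.0% and 79.9%, so such overlap was common among all genes. Cre07.g342100 was called only without BV and Cre09.g398700 only with BV (0.44 ± 0.08, limma adjusted p = 0.00028), a contrast between the comparisons that was not called in the test of the difference of BV effects.

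Cre17.g709973 stood at 6.16 and 6.83 RPKM in dark hmox1 with BV, against 1.34 and 1.40 RPKM in dark wild type with BV (1.66 ± 0.11, limma adjusted p = 8.1e-09). Cre02.g117179 stood at 2.99 and 2.99 RPKM in dark hmox1 with BV, against 0.780 and 0.802 RPKM in dark wild type with BV (1.16 ± 0.11, limma adjusted p = 5.9e-07). For Cre26.g772632 the difference was 0.99 ± 0.09 (limma adjusted p = 2.5e-07), and for Cre06.g299700 it was -1.11 ± 0.11 (limma adjusted p = 5.5e-07). These genes thus differed between the dark strains with BV as well as without it. The median over the members was 0.07, which became -0.01 after median scaling and 0.00 after quantile normalization.

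**Figure D5:**
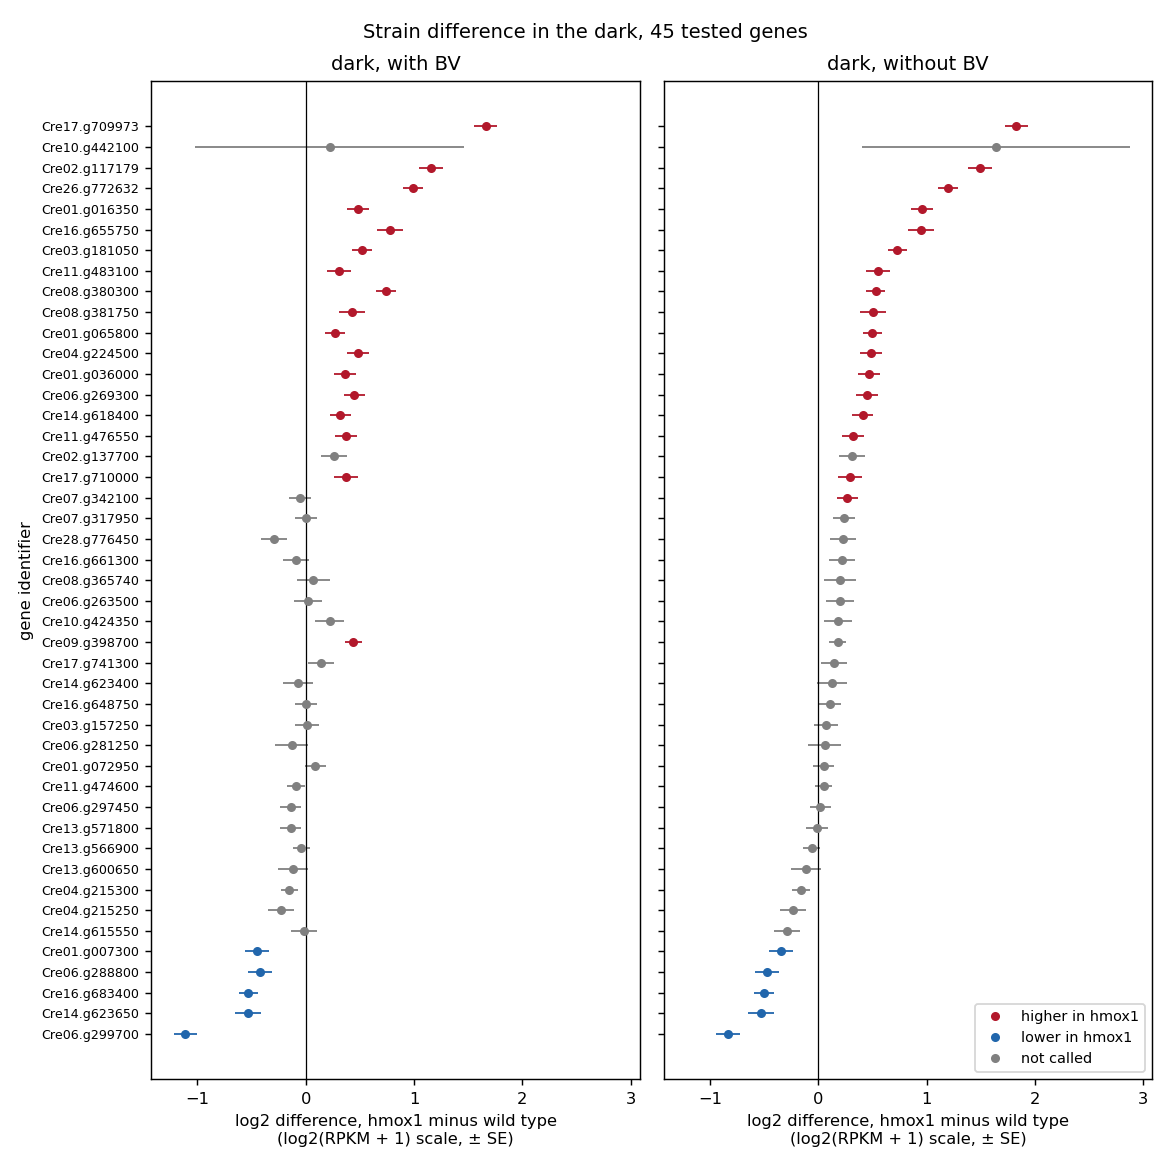
Difference between hmox1 and wild type in the dark, with BV (left) and without BV (right), on the log2(RPKM + 1) scale with its SE (bars) for the 45 tested genes, ordered by the difference without BV; red and blue points were called by limma as higher and lower in hmox1. On each side 17 genes were called higher and 5 lower; the wide bar is Cre10.g442100, which rests on few reads.

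Few members were called for BV in the dark. In dark hmox1, 0 members rose with BV, where 0.193% of all tested genes did, and 3 fell (6.67%), where 0.129% did; 4 members had an unadjusted p under 0.05 in limma. The 3 were Cre02.g117179, Cre17.g709973 and Cre17.g710000. Cre02.g117179 stood at 2.99 and 2.99 RPKM in dark hmox1 with BV, against 5.81 and 6.16 RPKM without BV (-0.81 ± 0.11, limma adjusted p = 0.0018). Cre17.g709973 stood at 6.16 and 6.83 RPKM with BV, against 10.1 and 10.8 RPKM without BV (-0.61 ± 0.11, limma adjusted p = 0.023). Cre17.g710000 stood at 2.72 and 2.38 RPKM with BV, against 3.99 and 4.31 RPKM without BV (-0.54 ± 0.11, limma adjusted p = 0.036).

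The libraries with and without BV did not overlap in any of these 3 genes, but all 3 calls were lost when replicate 2 of dark hmox1 without BV was left out, and 1 call was left with a pseudocount of 0.1. The remaining members changed little in dark hmox1: the median difference with BV was -0.05, against -0.03 over all tested genes, and 42 of 45 members lay within 0.5 of 0. Cre02.g137700, the gene most lowered by BV in the light, had a dark difference of -0.02 ± 0.12, and Cre11.g474600 one of -0.07 ± 0.08. Both stood under 1 RPKM in the dark, where the log2(RPKM + 1) scale leaves little room for a lower value. The same limit holds for the other members under 1 RPKM in the dark, which count among the 42.

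In dark wild type, 4 members rose with BV, 8.89% of them against 3.74% of all tested genes, and 4 fell, 8.89% against 1.72%. The 3 genes that fell in dark hmox1 fell here too. The same overlap over all tested genes is not given. With a pseudocount of 5 the wild-type calls of Cre02.g117179 and Cre17.g709973 were lost. They were also lost when either library of dark wild type with BV was left out. Cre17.g710000 stood at 1.86 and 1.63 RPKM in dark wild type with BV, against 3.40 and 3.03 RPKM without BV (-0.62 ± 0.11, limma adjusted p = 0.0017). Cre02.g117179 stood at 0.780 and 0.802 RPKM with BV, against 1.82 and 1.20 RPKM without BV (-0.47 ± 0.11, limma adjusted p = 0.021), and Cre17.g709973 differed by -0.44 ± 0.11 (limma adjusted p = 0.031). The fourth was Cre09.g398700 (-0.32 ± 0.08, limma adjusted p = 0.028). Cre17.g709973 and Cre17.g710000 follow each other in the table, and reads shared between them cannot be told apart.

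The members that rose with BV in dark wild type were Cre01.g016350, Cre28.g776450, Cre06.g299700 and Cre07.g342100. Cre01.g016350 stood at 6.06 and 5.68 RPKM in dark wild type with BV, against 3.32 and 3.26 RPKM without BV (0.68 ± 0.10, limma adjusted p = 0.00042). Cre28.g776450 stood at 6.37 and 5.99 RPKM with BV, against 3.92 and 3.78 RPKM without BV (0.57 ± 0.12, limma adjusted p = 0.011). Cre06.g299700 (0.42, limma adjusted p = 0.029) and Cre07.g342100 (0.37, limma adjusted p = 0.037) rose by less. The lower level with BV in lit hmox1 is a clause of the rule for these genes as for all members, so nothing is read from the opposite direction. The count of 8 members became 5 with a pseudocount of 5 and 2 to 8 with 1 library left out.

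A difference between the strains in the dark BV effect was not called for any member: 0 were higher in hmox1, where 0.0644% of all tested genes were, and 0 lower, where 0.873% were. At an unadjusted p under 0.05 in limma there were 4 members, with limma adjusted p-values of 0.18 for Cre01.g016350 (-0.48), 0.27 for Cre28.g776450 (-0.52), 0.46 for Cre07.g342100 (-0.33) and 0.47 for Cre09.g398700 (0.27). Cre01.g016350 and Cre28.g776450 are thus not shown to respond to BV differently in the strains, although only dark wild type was called. The comparisons of BV and of strain share dark libraries.

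Of the 46 identifiers, 32 matched a locus of the RefSeq assembly Chlamydomonas_reinhardtii_v5.5, and these lay on 13 chromosomes. At least 29 genes lay between any pair of them, so the matched members did not form clusters. The 14 members that did not match could not be placed. Cre04.g215250 and Cre04.g215300 follow each other in the table, as do Cre17.g709973 and Cre17.g710000, and the count of genes between members does not cover these pairs. Of the 54 tested genes directly beside a matched member, 11 (20.4%) had a ratio of lit hmox1 to lit wild type of 1.8 or more, against 8.67% of all tested genes; the difference between these shares was not tested. Over the 54 neighbours the median difference on the log2(RPKM + 1) scale was 0.29, the value over all tested genes. 3 neighbours met both fold clauses for hmox1 and were left out of the members only because BV also lowered them in lit wild type.

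These 3 neighbours were singled out after their values were seen. Cre06.g263550, beside Cre06.g263500, stood at 48.1 and 46.9 RPKM in lit hmox1 with BV, 604 and 556 RPKM in lit hmox1 without BV, and 216 and 202 RPKM in lit wild type without BV. Cre13.g566850, beside Cre13.g566900, stood at 160 and 156 RPKM in lit hmox1 without BV, against 44.3 and 46.9 RPKM in lit wild type without BV. Cre14.g615600, beside Cre14.g615550, stood at 17.8 and 19.3 RPKM in lit hmox1 without BV, against 5.63 and 4.82 RPKM in lit wild type without BV.

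Each neighbour was several times more abundant than the member beside it. Cre06.g263500 had 89.1 and 85.8 RPKM in lit hmox1 without BV, Cre13.g566900 had 2.31 and 2.54 RPKM, and Cre14.g615550 had 5.11 and 5.44 RPKM. Whether reads of the neighbours were counted for these 3 members was not tested.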

How the data were processed

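RNA of 16 libraries, 2 in each of 8 groups of strain, BV and light, was sequenced as single-end reads of 100 nt, per the labels' protocols. Groups and replicate numbers were taken from the labels. The authors deposited RPKM per gene, a unit read from the values since the header names none. Bowtie was used, per the submitters' processing notes; neither its version nor the genome build, annotation, counter or use of strand is given in the sources used here, so overlapping or near-identical genes can share reads and no coordinates are printed.

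The RPKM steps were solved for whole reads by taking the smallest length at which all values came close to whole numbers. The distance allowed was at most 0.1 reads, and far less at low counts. This worked for 16851 of 16852 genes above 0 and put 99.87% of values within 0.01 reads of a whole number. That share largely follows from the distance allowed and is no evidence for the recovered reads. At the lowest and highest depth, 3 reads in a gene of 2000 nt are 0.147 and 0.0346 RPKM, and such limits cover counting error only.

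Tests used limma 3.58.1 in R 4.3.3 on log2(RPKM + 1). The model held the 8 group means of the 16 libraries, which left 8 residual degrees of freedom, and used robust moderation with a trend on the mean. The filter kept the 13972 genes that reached 1 RPKM in 2 or more libraries, with Benjamini-Hochberg adjustment within each of 5 dark comparisons. The scale understates changes of low genes. Both steps were tested on simulated data. The read recovery returned all reads of 98.6% of 16800 genes. For dark hmox1 against dark wild type without BV, genes at 1 RPKM or more in dark wild type were simulated. There limma called 44% of 100 genes changed 1.5-fold and 90% of 100 genes changed 2-fold. It made 7 false calls among the unchanged of 12944 genes. A member that was not called is thus not shown to be unchanged.

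The members and lists were chosen with earlier results of these data known. Genes named are those with the 10 largest ratios of lit hmox1 to lit wild type, the most abundant, up to 4 per direction in each dark comparison by size, and those nearest the thresholds; others are named as chosen after their values were seen, as are the classes by light. Lists by product name, protein families and promoter motifs were planned but need annotation and sequences not used here. Alternatives changed scaling, pseudocount, filter, groups in the fit, moderation, replicate block and single libraries.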

Additional observations from a re-analysis of the deposited data

How the results depend on the processing

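No call changed direction under the alternatives run. Of 810 recomputations of 45 calls of named genes over 18 settings, 720 kept the call and 90 lost it, 68 of these by leaving out a library, which touched 22 of the 45 calls. Leaving out 1 library, the number of members called was 17 to 22 for the strains without BV (22 with all libraries), 14 to 22 for the strains with BV (22), 2 to 8 for BV in dark wild type (8), 0 to 3 for BV in dark hmox1 (3) and 0 for the difference of the BV effects (0). A pseudocount of 5 gave 5 for BV in dark wild type, and one of 0.1 gave 1 for BV in dark hmox1. With the replicate number as a block, the replicate block counts were 23, 22, 8, 3 and 0. The numbers were not shown to pair libraries: the labels do not say so, and the correlation of the deviations of same-numbered dark libraries was 0.27 for the strains without BV, 0.034 with BV, 0.15 for BV in wild type and -0.064 for BV in hmox1. A fit without the 2 libraries of lit wild type with BV, added after seeing the data, gave 23, 23, 8, 3 and 0. The rule itself gave 36 genes with thresholds of 2 and 0.5, and 36 of these were members. With a pseudocount of 0.1 in the rule it gave 60 genes, of which 43 were members. With one of 5 it gave 32 genes, of which 28 (60.9% of the members) were shared. After median scaling it gave 41 genes, of which 31 (67.4% of the members) were shared. Replicate 1 libraries alone gave 45 genes and replicate 2 libraries alone 51, and 40 members were kept by each alone. With 2 libraries per group whose cultures the labels do not separate, an effect of a culture cannot be told apart from that of its condition, and members low in the dark rest on few reads.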
